A study of Mus musculus with 22 samples.

Results

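DNA methylation was described here at 4 genes, Tmem267, Hcn4, Septin9 and Gipc2, in the forebrain of embryonic day 10.5 mouse embryos. The genes were selected because they hold partly methylated tiles whose level varied widely between EtOH-exposed forebrains, so the contrast between the groups chose them and is given as a description, without a test. They are 4 of 20558 protein-coding genes annotated on chromosomes 1 to 19. The window of a gene ran from 5 kb upstream of its start to 1 kb past its end, as annotated by RefSeq on GRCm38, and the 4 windows held 76 of the 114689 analysed tiles.

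The samples were 22 wild type C57BL/6 forebrains. The 6 control samples came from embryos whose dam received saline, and the 16 EtOH-exposed samples from embryos whose dam received ethanol, both by subcutaneous injection during pre-implantation development. Embryos of the same dam share an exposure, and the labels used here give neither the litter nor the sex of an embryo. Marker gene expression was not analysed here, so the tissue label was not checked. Methylation was measured by reduced representation bisulfite sequencing (RRBS), in which the enzyme MspI cuts the DNA at CCGG irrespective of CpG methylation and a read reports the methylation of each CpG on its strand.

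CpG methylation is copied to the daughter strands when cells divide, and much of it is erased and later rebuilt in the first days of mouse development. Start sites rich in CpGs are usually unmethylated and the bodies of genes usually methylated, so a partly methylated stretch mixes methylated and unmethylated molecules, whether from both parental alleles or from different cells. Tmem267 codes for a transmembrane protein whose function is little known. Hcn4 codes for a channel of the HCN family, which opens on hyperpolarisation, binds cyclic nucleotides and carries the pacemaker current of the sinoatrial node and of thalamic neurons. Septin9 codes for a GTP-binding protein that assembles with other septins into filaments at the division furrow and on microtubules, and Gipc2 codes for a PDZ-domain adaptor of the GIPC family, whose proteins bind receptors and link them to myosin VI.

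A tile is a 100 bp window, and its level is the percentage of methylated reads, counting cytosines with 10 or more reads and requiring 2 or more such CpGs in the sample. A tile was analysed where at least 5 samples of each group had a level, and it was called a differentially methylated region (DMR) when its q-value in a logistic model of reads was under 0.01 and the groups, with samples weighted by coverage, were 10 or more percentage points apart. The lead tile of a gene is its DMR with the largest difference. Total methylation calls per sample were 68126469 to 132488556 in controls and 89179413 to 216223892 in EtOH-exposed samples.

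The lead tile of Hcn4 lies at chr9:58849801-58849900, in intron 2 of the 8-exon transcript NM_001081192.3. The lead tile of Septin9 lies at chr11:117350101-117350200, in intron 3 of the 12-exon transcript NM_001113486.1 and in intron 1 of the shorter transcript NM_017380.2. Its neighbour at chr11:117350201-117350300 was also a DMR. Gipc2 is on the reverse strand, and its lead tile at chr3:152092901-152093000 lies 841 bp past the end of NM_016867.1, with a second DMR at chr3:152092801-152092900. These tiles are shown because the levels described here rest on few CpGs. Not every CpG in capitals was read: at Hcn4 the kept reads were at the last 2. Each is printed in full from GRCm38, on the forward strand for Hcn4 and Septin9 and on the reverse strand for Gipc2, with CpGs in capitals.
Hcn4 lead tile: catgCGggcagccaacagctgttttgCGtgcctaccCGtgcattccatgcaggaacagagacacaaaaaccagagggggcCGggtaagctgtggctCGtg
Septin9 lead tile: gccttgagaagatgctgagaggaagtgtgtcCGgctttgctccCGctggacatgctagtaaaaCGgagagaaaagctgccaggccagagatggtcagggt
Septin9 neighbour: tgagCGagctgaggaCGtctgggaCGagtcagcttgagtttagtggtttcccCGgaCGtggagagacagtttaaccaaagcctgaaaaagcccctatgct
Gipc2 lead tile: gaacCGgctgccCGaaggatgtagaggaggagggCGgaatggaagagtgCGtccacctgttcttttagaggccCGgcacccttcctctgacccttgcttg
Gipc2 neighbour: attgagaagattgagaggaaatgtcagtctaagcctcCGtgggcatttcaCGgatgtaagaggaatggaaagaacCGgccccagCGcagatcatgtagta

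The lead tile of Tmem267 lies at chr13:119488101-119488200, in the untranslated first exon of NM_001039244.4 and 273 bp upstream of the start of the gene's other 3 transcripts. Its centre is 64 bp past the gene's start. It is also 234 bp past the start of 3110070M22Rik, a transcript on the opposite strand whose start lies within Tmem267. It holds 11 CpGs and 2 MspI sites, and 71% of its bases are G or C. By contrast the Septin9 lead tile has 3 CpGs and the Gipc2 lead tile 5. The Hcn4 tile has 5 CpGs in the genome, of which at most 2 were read in a sample. A search of 300 bp around each lead tile found no other match in the genome with an E-value under 1e-10. It did not reach the Tmem267 tiles from chr13:119488501 on.

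Of the 76 tiles, 24 were partly methylated, meaning a control mean of 20 to 80%. Septin9 held 17 of them, Gipc2 4, Tmem267 2 and Hcn4 1. DMRs numbered 8, all lower in EtOH-exposed forebrains, with 3 in Septin9, 2 each in Tmem267 and Gipc2, and 1 in Hcn4. Over all analysed tiles, 1.15% were DMRs in either direction and 1.1% were DMRs with the lower level in EtOH-exposed samples. The 4 genes were chosen on this contrast, so nothing is read from their share. The logistic model takes no account of spread between embryos: with an F test that estimates it for each tile, 0% of all tiles and none of the 76 were called, while 10 of the 76 and 5.78% of all tiles had an unadjusted p under 0.05; limma on log2 ratios of methylated to unmethylated reads called none of them either, with 8 of the 76 and 4.46% of all tiles at an unadjusted p under 0.05. Among the 24 partly methylated tiles, 22 had the lower mean in EtOH-exposed samples, against 81.2% of such tiles over the genome. EtOH-exposed samples had a larger SD than controls in 21 of the 24, against 75.7% over the genome, and the median SD of EtOH-exposed samples was 11.1 points, against 8.21.

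**Figure D1:**
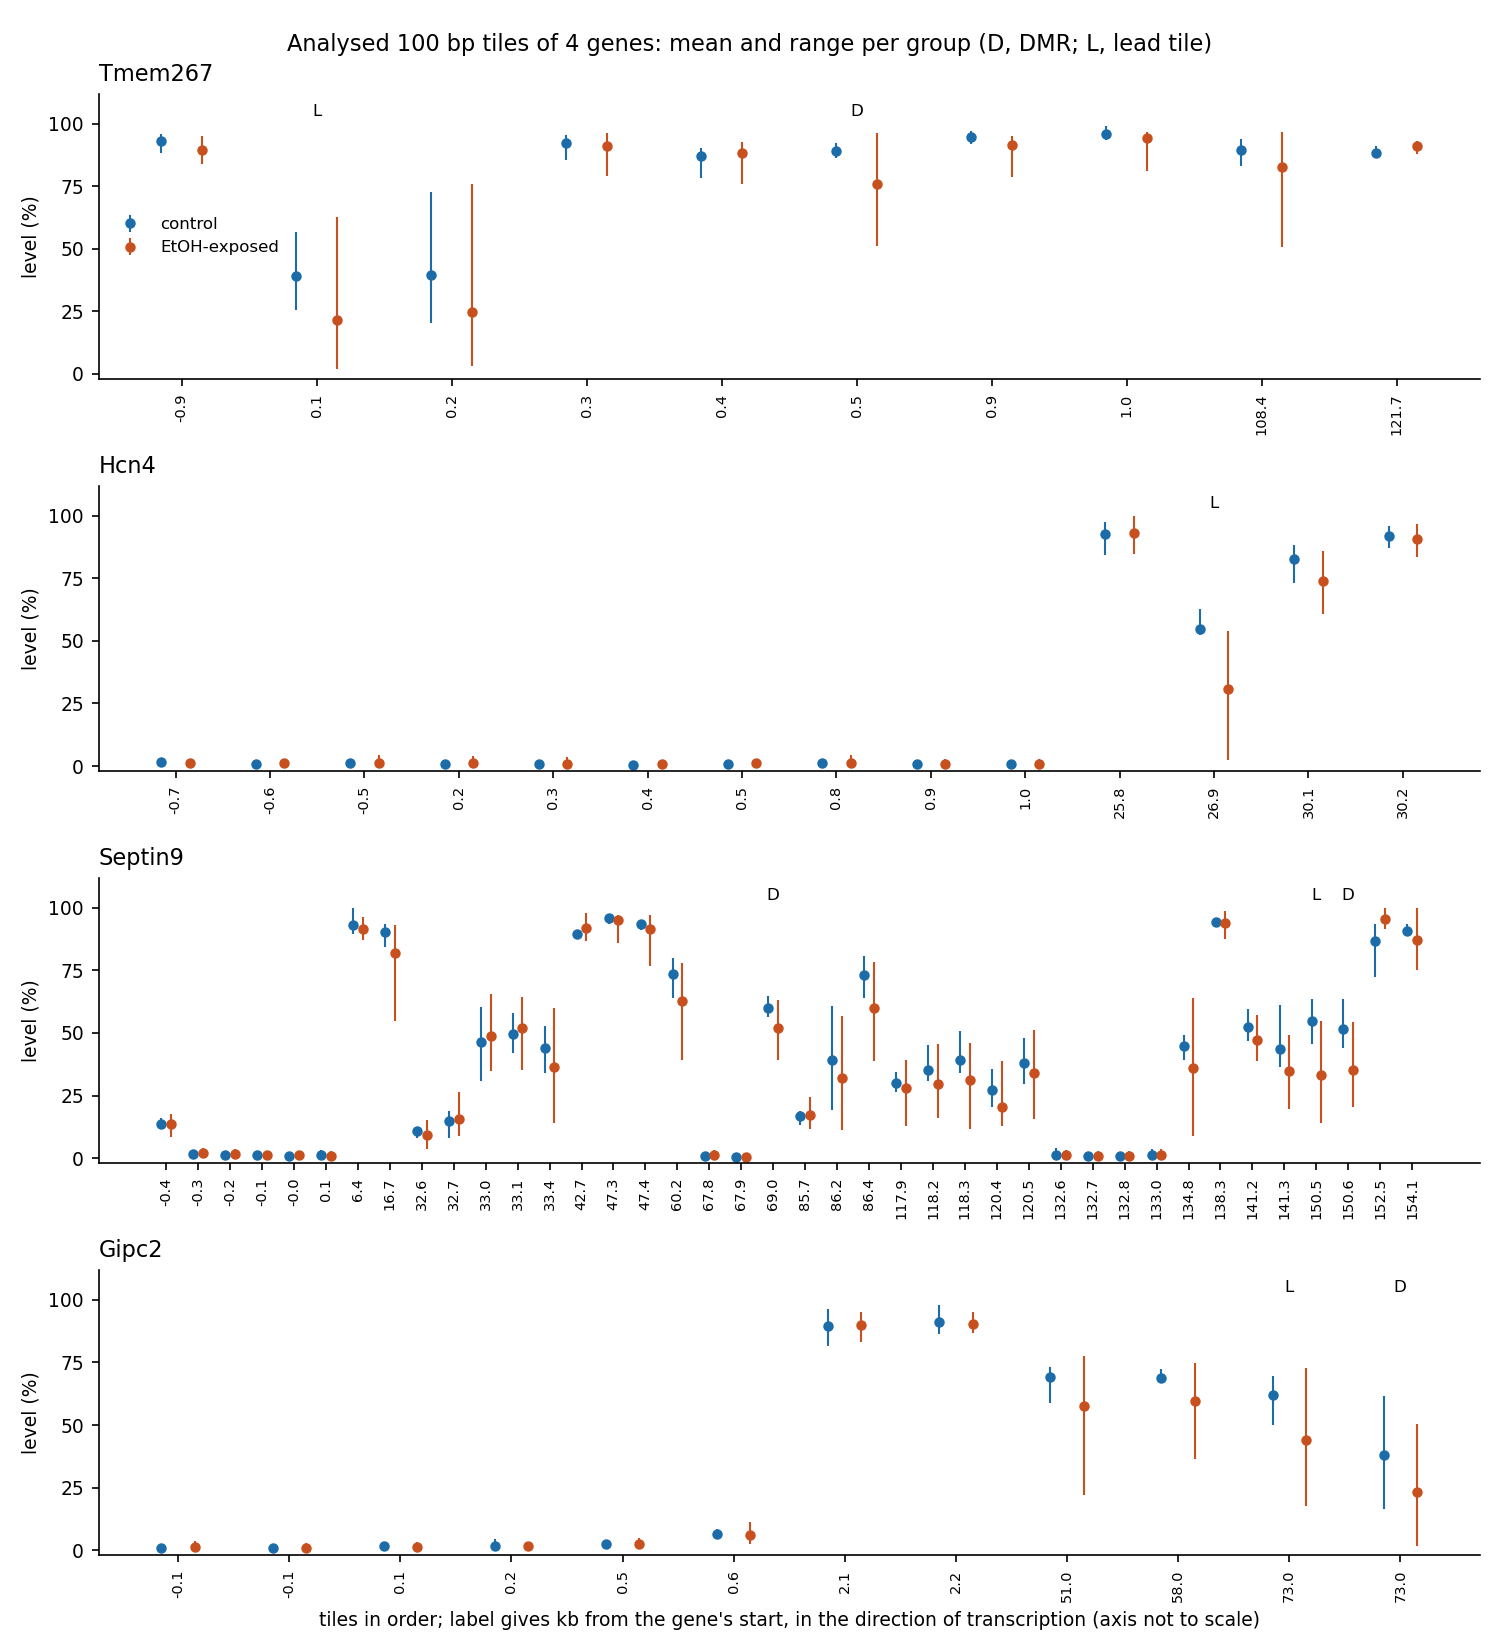
Methylation level (%) of the 76 analysed tiles of the 4 genes, in order along each gene and labelled by distance from its start. Points are group means and lines run from the lowest to the highest sample; DMRs carry a D and lead tiles an L. Most tiles near the starts of Hcn4, Septin9 and Gipc2 lie near 0, whereas the tiles around the start of Tmem267 lie between 39.1 and 95.6% in controls.

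The start of Tmem267 differed from those of the other 3 genes. The 10 tiles of the gene comprised the 2 partly methylated ones and 8 at 80% or more in controls, with none under 10%. Of these 8, 2 lie far from the start, at 108364 and 121664 bp. Some of the methylated tiles were read very deeply. At 264, 364, 864 and 964 bp from the gene's start, the median was 11007.5, 18975, 6612.5 and 9688 reads. The highest median at a tile of the other 3 genes was 3537, in Gipc2. Whether reads from copies elsewhere add to these depths and levels was not tested. Hcn4 had 10 tiles under 10%, all within about 1 kb of its start, with control means of 0.504 to 1.5%, and Gipc2 had 6 of this kind between −150 and 550 bp from its start. Septin9 had 11, 5 of them between −310 and 90 bp from the start of its longest transcript and 6 in introns of that transcript. Of these 6, the tiles between chr11:117332201 and chr11:117332700 lie −62, 38, 138 and 338 bp from another annotated Septin9 start. None of these unmethylated tiles was a DMR.

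At the Tmem267 lead tile the control levels ran from 25.6 to 56.9%, with a median of 38.2% and a mean of 39.1% ± 10.5 (SD, n = 6). The EtOH-exposed levels ran from 1.90 to 62.7%, with a median of 17% and a mean of 21.4% ± 18.3 (SD, n = 16). Of the 16, 11 were below the lowest control, 4 were within the control range and EtOH-exposed sample 12 was above it. The groups therefore overlapped, although 6 EtOH-exposed samples (2, 4, 5, 6, 9 and 14) were at or under 8.02%. The lowest control, sample 2, had 20 of its 242 reads on an MspI fragment of 21 bp, at 100%. The count of samples below it was not repeated without these reads. The coverage-weighted levels were 42.1% and 19.2%, a difference of −22.9 points.

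At the Hcn4 lead tile the 6 controls lay close together, at 52.6, 54.2, 53.6, 62.7, 52.3 and 52.9% for samples 1 to 6, with a mean of 54.7% ± 4.0 (SD). The EtOH-exposed levels ran from 2.33 to 54.1%, with a median of 32.0% and a mean of 30.6% ± 15.8 (SD, n = 16). Of these, 14 were below the lowest control, and only EtOH-exposed samples 10 and 12, at 54.0 and 54.1%, were within the control range. The coverage-weighted levels were 55.9% and 35.2%, a difference of −20.6 points. The tile rested on 24 to 393 reads, nearly all at 2 forward cytosines that were read in all 22 samples.

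At the Septin9 lead tile the control levels ran from 45.5 to 63.6%, with a median of 55.7% and a mean of 54.6% ± 6.8 (SD, n = 6). The EtOH-exposed levels ran from 14 to 54.7%, with a median of 37.5% and a mean of 33.3% ± 14.1 (SD, n = 16). Of these, 13 were below the lowest control, and samples 1, 3 and 16 were within the control range. The coverage-weighted levels were 51.8% and 33.1%, a difference of −18.7 points. Its 3 forward cytosines were read in all 22 samples and differed by −23.2, −22.5 and −16 points between the group means.

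At the Gipc2 lead tile the control levels ran from 50 to 69.6%, with a median of 64.2% and a mean of 61.9% ± 8.2 (SD, n = 6). The EtOH-exposed levels ran from 17.7 to 72.7%, with a median of 42.8% and a mean of 44.1% ± 14.8 (SD, n = 16). Of these, 11 were below the lowest control, 4 were within the control range and sample 16 was above it. The coverage-weighted levels were 64.0% and 41.6%, a difference of −22.4 points. Most reads came from the reverse strand, where each of the 5 cytosines was kept in 5 controls and in all 16 EtOH-exposed samples.

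**Figure D2:**
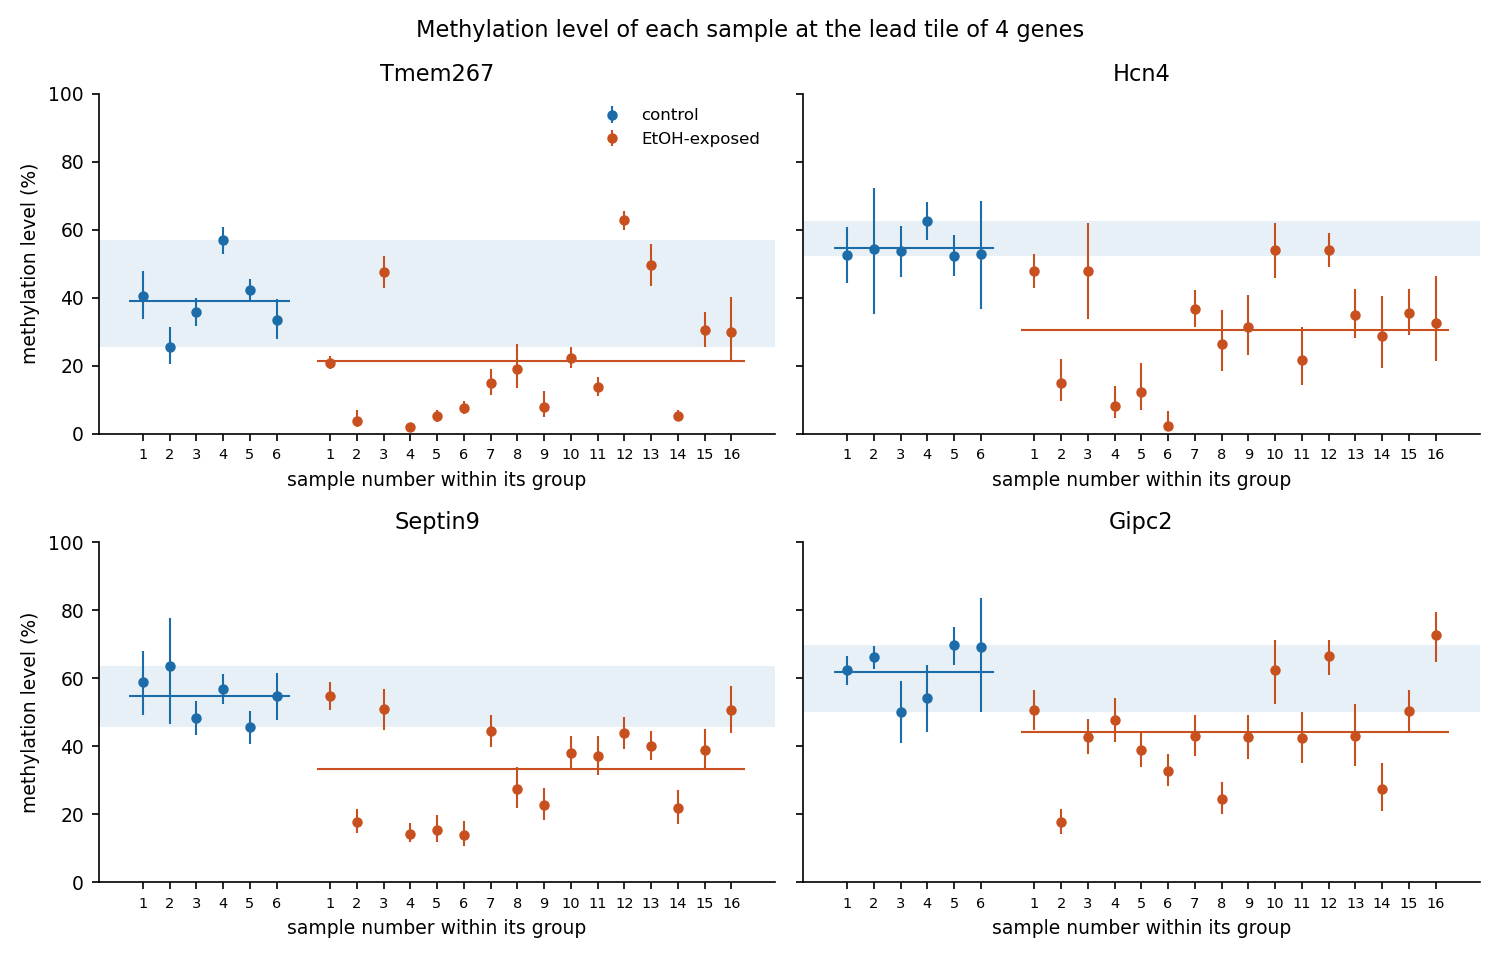
Methylation level (%) of each of the 6 control and 16 EtOH-exposed samples at the lead tile of the 4 genes. Bars are 95% Wilson intervals, horizontal lines are group means and the band is the control range. At Hcn4, 14 EtOH-exposed samples lie below the band, and at Septin9, 13.

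The genes were picked for a wide spread between EtOH-exposed forebrains, so the size of that spread at the lead tiles is a description. Counting error by itself corresponds to an SD of 2.19 points at Tmem267, 4.23 at Hcn4, 2.53 at Septin9 and 3.31 at Gipc2, against observed SDs of 14.1 to 18.3. Intervals and counting error take reads as independent molecules, which amplified RRBS reads are not, and so cover counting error alone. Among 2635 partly methylated tiles with a level in all 22 samples, the median SD between EtOH-exposed samples was 7.09 points. A larger SD than that of the lead tile was found in 1.71% of these tiles for Tmem267, 4.21% for Hcn4, 5.46% for Gipc2 and 6.76% for Septin9.

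**Figure D3:**
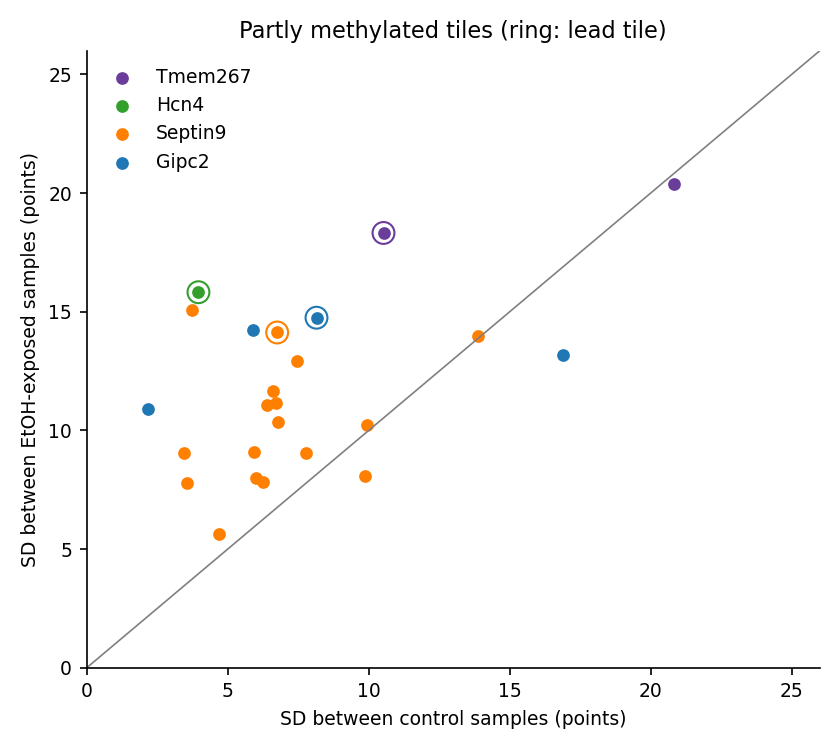
SD between EtOH-exposed samples against SD between control samples, in percentage points, for the 24 partly methylated tiles of the 4 genes. Rings mark lead tiles and the line marks equal SDs; 21 of the 24 tiles lie above it.

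The other DMRs differed in how far they followed the lead tiles. At Tmem267 the second DMR, chr13:119488501-119488600, lies in the untranslated first exon of the gene's other 3 transcripts, has 14 CpGs and was read deeply, with a median of 4065 reads. It was highly methylated in controls, at 89.0% ± 2.3 (SD, n = 5), and ranged from 51.2 to 96.3% in 15 EtOH-exposed samples, with a mean of 75.8% ± 16.7 (SD). Of the 15, 9 were below the lowest control, 3 within the control range and 3 above it. Those above it were samples 4, 5 and 6, at 93.3, 96.3 and 95.2%, which had 1.90, 5.10 and 7.54% at the lead tile. In these samples the 2 DMRs thus ran in opposite directions. Weighted by reads, the levels were 88.5% and 67.0%, and the difference of -21.5 points that made it a DMR was larger than that between the sample means, -13.2 points. One stretch of 2 measured cytosines inside it, chr13:119488531-119488536, ran the other way, with 36.9% ± 20.9 (SD, n = 5) in controls and 55.7% ± 23.4 (SD, n = 15) in EtOH-exposed samples. This stretch is an MspI fragment of only 6 bp. Both cytosines lie at the CCGG sites that bound it, where gap-filling of the library can place unmethylated cytosines. The fragment before it had 95.5% ± 2.2 (SD, n = 5) in controls. These values are therefore not read as a change in methylation.

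At Septin9 the tile next to the lead tile had 51.5% ± 6.7 (SD, n = 6) in controls and, in the EtOH-exposed group, 35.4% ± 11.2 (SD, n = 16), a weighted difference of −13.5 points. Both tiles take reads from the same MspI fragment of 121 bp, so they are not independent measurements. The third Septin9 DMR, chr11:117268601-117268700 in intron 2 of NM_001113486.1, was just past the limit of 10 points. Its levels were 60.1% ± 3.4 (SD, n = 5) and 51.8% ± 9.0 (SD, n = 12), a weighted difference of −10.7 points. The tile just outside the limit, chr11:117285801-117285900, had a weighted difference of −9.11 points, from 39.3% ± 13.9 (SD, n = 6) and 32.0% ± 14 (SD, n = 12).

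At Gipc2 the tile next to the lead tile had lower and more variable levels in controls, at 38.1% ± 16.9 (SD, n = 6), and 23.4% ± 13.2 (SD, n = 16) in EtOH-exposed samples. Its weighted difference was −18.1 points, yet only 5 EtOH-exposed samples were below the lowest control and the other 11 were within the control range. Both tiles take reads from an MspI fragment of 102 bp, so they are not independent measurements, and the lead tile mixes this fragment with the next, of 69 bp. The sample means differed by −15.9 points on the 102 bp fragment and −13.1 on the 69 bp fragment, beside −17.9 over the lead tile. On each fragment, 8 of the 16 EtOH-exposed samples were below the lowest of 5 controls. Control 2 had no kept reads on the 102 bp fragment, and control 6 none on the 69 bp fragment. The gene's other partly methylated tiles, chr3:152107901-152108000 and chr3:152114901-152115000, were not called. In the first of them the controls lay at 68.6% ± 2.2 (SD, n = 5), and 13 of 15 EtOH-exposed samples were below the lowest control, with a weighted difference of −5.63 points.

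Tmem267 and Septin9 also had a partly methylated tile with a larger SD between EtOH-exposed samples than the lead tile. At Tmem267 it was the adjacent tile chr13:119488201-119488300, with an SD of 20.4 points in 15 EtOH-exposed samples and 20.8 points in 5 controls, which ranged from 20.5 to 72.9%. Its spread was thus present in controls as well. Its weighted difference was −5.67 points and that of the sample means −14.6 points, both smaller than either SD, and 9 of the 15 EtOH-exposed samples were below the lowest control. With unweighted differences this tile would be the third DMR of Tmem267. At Septin9 it was chr11:117334401-117334500, with an SD of 15.1 points in 15 EtOH-exposed samples, from 8.82 to 64.0%, and of 3.7 points in 5 controls. Not all of the Septin9 tiles had the lower mean in EtOH-exposed samples: at chr11:117232601-117232700 and chr11:117232701-117232800 the weighted differences were +3.80 and +2.69 points.

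Within 2 kb of the lead tiles, most other analysed tiles were highly methylated in both groups. At Tmem267, 5 of the 7 neighbouring tiles had control means of 87.0 to 95.6% and weighted differences between −3.04 and 0.297 points. At Hcn4 the single neighbour, chr9:58848701-58848800, had 92.8% ± 5.3 (SD, n = 5) in controls and 92.9% ± 4.2 (SD, n = 10) in EtOH-exposed samples. At Septin9 the neighbour chr11:117352101-117352200 had 86.6% ± 8.6 (SD, n = 5) and 95.4% ± 3.6 (SD, n = 7).

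The MspI fragments around the Tmem267 lead tile had sharply different levels, and different samples had reads on different fragments. In the fragment of 167 bp that covers the first part of the tile, 4 controls had 40.1% ± 8.0 (SD) and 12 EtOH-exposed samples 17% ± 17.4 (SD). The next fragment, of 21 bp, had 87.9% ± 8.5 (SD) in 4 controls and 55.6% ± 26 (SD) in 8 EtOH-exposed samples, with a median of 38.5 reads. The third, of 82 bp, had 39.3% ± 21.2 (SD) in 5 controls and 24.9% ± 20.8 (SD) in 15 EtOH-exposed samples. A sample's level at this tile therefore depends on which fragments were read in it. EtOH-exposed samples 3 and 13, for instance, had no kept reads on the first fragment and 73.0 and 73.1% on the short one. With the cytosines of the short fragment left out, an alternative chosen after seeing the data, the weighted difference of the tile was −22.9 points. On the 167 bp fragment, 9 of the 12 EtOH-exposed samples were below the lowest of the 4 controls. On the 82 bp fragment, 9 of the 15 were below the lowest of the 5 controls. EtOH-exposed sample 12 was above the controls on the first and on the third fragment, at 57.5 and 76.1%, against control maxima of 51.4 and 72.8%, but below them on the short fragment, at 57.4% against a control minimum of 80.6%.

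**Figure D4:**
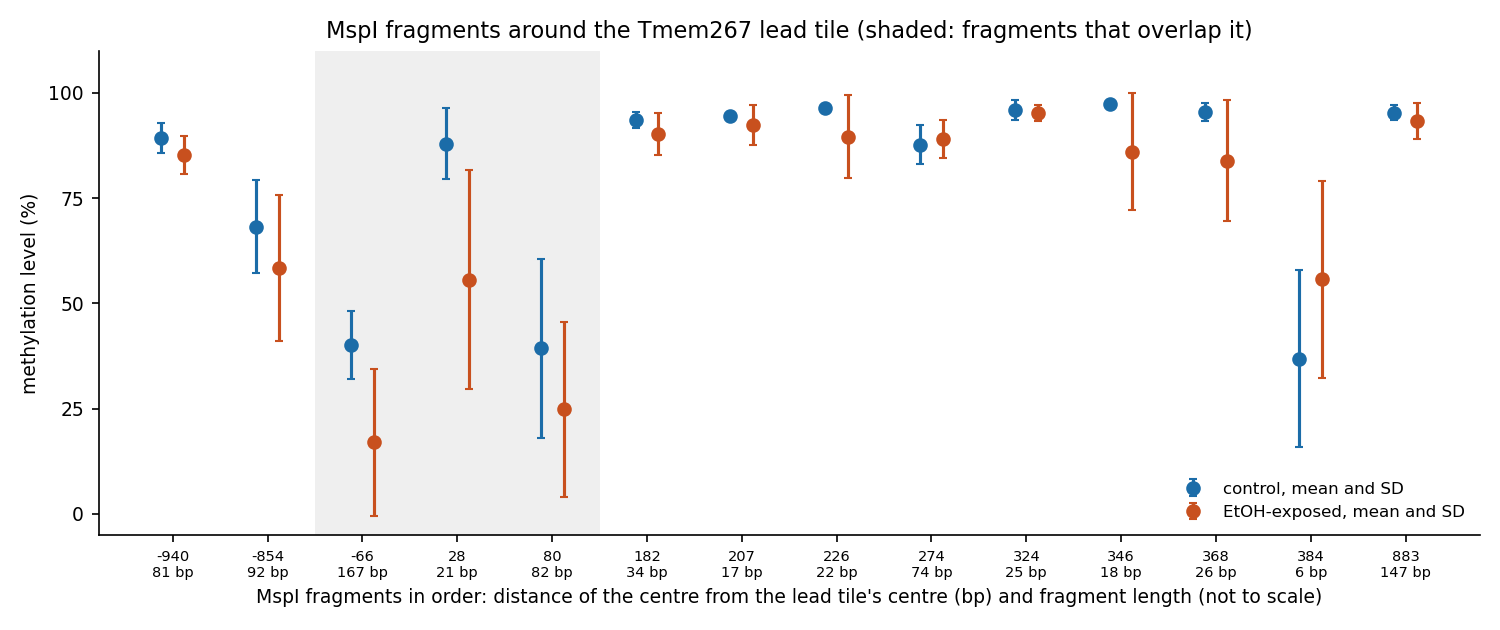
Methylation level (%) of MspI fragments within 1 kb of the Tmem267 lead tile, in order and labelled by distance and length. Points are means over the samples read and bars are SDs; the 3 shaded fragments overlap the lead tile. The fragments of 167 and 82 bp lie near 40% in controls, and the 21 bp fragment between them at 87.9%.

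Of the 16 EtOH-exposed forebrains, 9 (2, 4, 5, 6, 7, 8, 9, 11 and 14) were below the control range at all 4 lead tiles. At Gipc2 this holds for the tile as a whole. Samples 4, 5 and 9 were within the control range on its 69 bp fragment, and samples 7 and 11 on its 102 bp fragment. By tile, one forebrain was below the control range at 3 lead tiles, 4 at 2 and 2 at 1, and 0 were within or above the control range throughout. Samples 12 and 16 were below it at 1 tile each, at Septin9 and at Hcn4 respectively, and were the samples above it at Tmem267 and at Gipc2. Hcn4 shared 11 samples below the control range with Septin9 and 11 with Gipc2. The levels of Hcn4 and Septin9 were the most alike of the 6 pairs of lead tiles, with a root mean square difference of 8.65 points over 22 samples. The least alike were Tmem267 and Gipc2, at 27.4 points. This measure includes the gap between the levels of 2 genes in controls. The control means were 54.7 and 54.6% at Hcn4 and Septin9, and 39.1 and 61.9% at Tmem267 and Gipc2. It therefore does not rank how the genes varied together across embryos.

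The order of the embryos was not the same at each gene. EtOH-exposed sample 4 was the lowest of the 16 at Tmem267, at 1.90%, and the second lowest at Hcn4 and Septin9, at 8.21 and 14.3%, but 11th at Gipc2, at 47.8%. There it had 59.7% on the 69 bp fragment, within the control range, and 20.8% on the 102 bp fragment, below the lowest of 5 controls at 22.7%. Sample 6 was the lowest at Hcn4 and Septin9, at 2.33 and 14%. Sample 2 was the lowest at Gipc2, at 17.7%, and second at Tmem267, at 3.88%. Neighbours in these orders often differed by less than their counting intervals: at Gipc2 the samples ranked 6 to 10 lay between 42.3 and 43.1%.

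**Figure D5:**
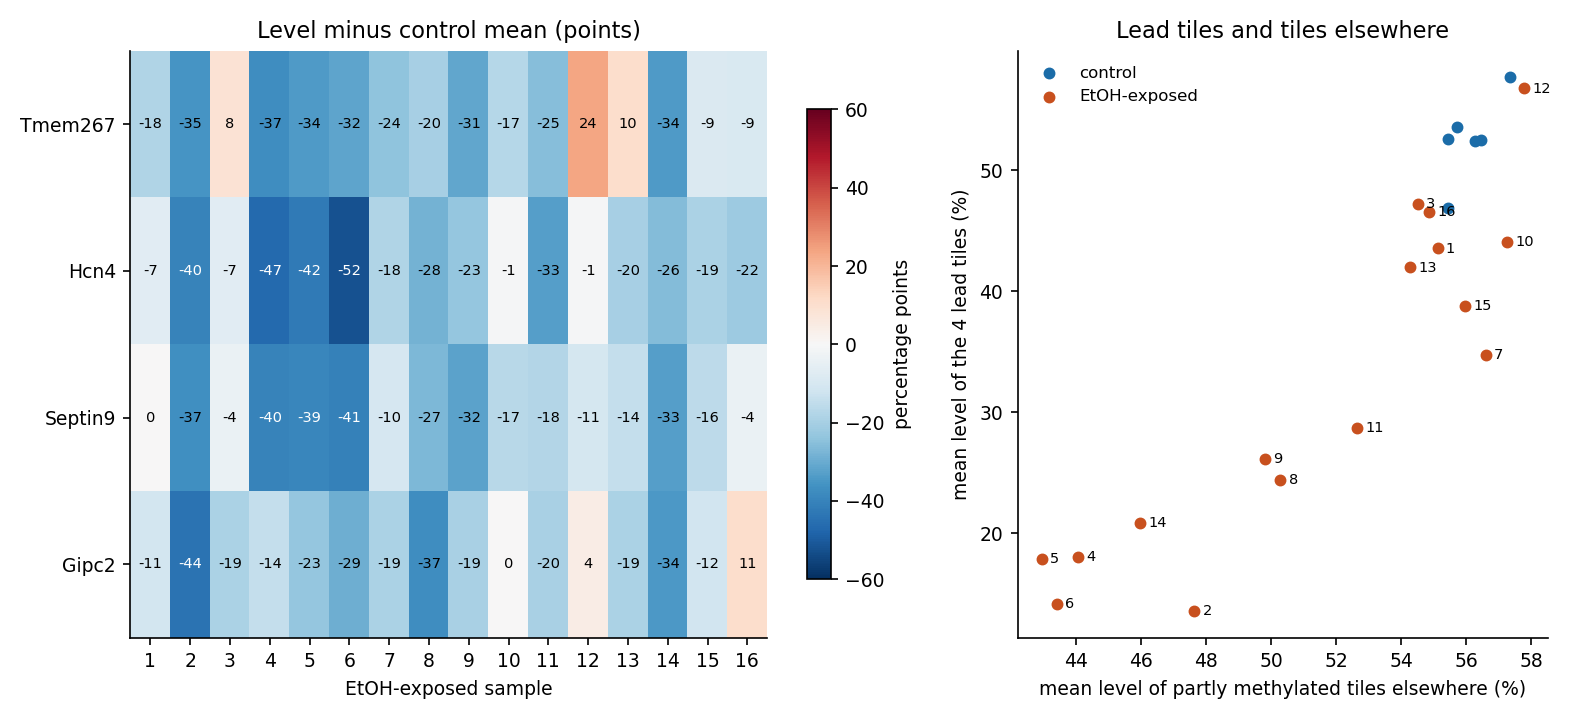
Left, level of each EtOH-exposed sample minus the control mean, in percentage points, at the 4 lead tiles. Right, mean level of the 4 lead tiles against the mean level of 2626 partly methylated tiles outside the 4 genes, both in percent, with EtOH-exposed samples numbered. Samples 2, 4, 5, 6 and 14 are lowest on both axes.

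Properties of whole libraries moved with these levels. Over 2626 partly methylated tiles outside the 4 genes, the mean level was 55.4 to 57.3% in controls and 43.0 to 57.8% in EtOH-exposed samples. The 5 EtOH-exposed samples with the lowest mean over the 4 lead tiles were also the 5 lowest at these tiles. They were, too, the 5 with the lowest ratio of reads in highly methylated tiles to reads in unmethylated tiles, which was 0.0720 to 0.156 in controls and 0.0342 to 0.132 in EtOH-exposed samples. Of the EtOH-exposed samples, 8 had a ratio below every control, and 7 of these 8 were below the control range at all 4 lead tiles, against 2 of the other 8. These counts go by tile and carry the limits given above for single fragments and for sample 7. Without these 8 libraries, an alternative chosen after seeing the data, the weighted difference was −11.7 points at Tmem267, −12.6 at Hcn4, −7.85 at Septin9 and −10.2 at Gipc2, and 3 of 71 tiles were called, 1 each in Tmem267, Hcn4 and Gipc2, while the share of all tiles called was 0.237%. The part of library composition in the results was not tested.

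Libraries also differed in their level at unmethylated tiles, 0.672 to 1.52% in controls and 0.260 to 2.54% in EtOH-exposed samples. They were grouped by this level, with a ratio over a set limit between neighbours opening a new group. At a limit of 1.2 there were 5 groups, of which 1 held both conditions, with controls 1 and 2 and EtOH-exposed sample 8. The other groups held 1 condition each, so condition and group can hardly be told apart at this limit. Levels at the second Tmem267 DMR differed between some of these groups. They were 51.2 to 67.3% in samples 2, 3, 9, 12 and 14 of one group and 93.3 to 96.3% in samples 4, 5 and 6 of another. In the group of samples 7, 10, 11, 13, 15 and 16 they ran from 70.4 to 90.2%. In the mixed group, sample 8 had 57.5%, against 89.1 and 88.0% in controls 1 and 2. The part of the library in this was not tested. At a limit of 1.3, one group held all 6 controls and 7 EtOH-exposed samples. Within it the difference of the sample means was −13.4 points at Tmem267, −20.2 at Hcn4, −15.1 at Septin9 and −13.6 at Gipc2. Of the 7 EtOH-exposed samples, 6 were below the lowest control at Hcn4, 6 at Septin9 and 4 each at Tmem267 and Gipc2. The other 9 EtOH-exposed samples were in groups without a control, where condition and group cannot be told apart.

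Read depth did not rank the genes, but it entered the choice of tiles. Cytosines needed 10 reads, at least 5 samples of each group needed a level, and the lead tile had the largest coverage-weighted difference. The depth tests at the lead tiles are read within that limit. No difference in depth between the groups was detectable at the lead tiles, as calls at the tile per 1000000 calls of the sample. At Tmem267 it was 4.57 ± 1.88 (SD, n = 6) in controls and 4.59 ± 3.12 (SD, n = 16) in EtOH-exposed samples, with an exact permutation p of 0.743 and an adjusted p of 0.832. At Hcn4 the values were 1.51 ± 0.898 and 1.11 ± 0.790, with an exact permutation p of 0.347 and an adjusted p of 0.694. Septin9 had 2.75 ± 1.62 and 2.58 ± 0.836, with an exact permutation p of 0.832 and an adjusted p of 0.832. Gipc2 had 3.16 ± 2.94 and 1.83 ± 0.600, with an exact permutation p of 0.321 and an adjusted p of 0.694. The differences of the mean log2 values were −0.11, −0.23, 0.05 and −0.29 in this order, with the opposite sign to the differences of the linear means at Tmem267 and Septin9, and 10, 12, 8 and 13 of the 16 EtOH-exposed samples were below the control mean. The tests were two-sided on log2 values, adjusted over the 4 tiles, and a p of this size does not show that the depths were equal. Their p-values measure the spread between these samples, and take embryos as independent although, by the study's methods, some share a dam.

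The DMRs of related genes are given beside the 1.15% of all tiles that were DMRs. Hcn2, which codes for another HCN channel, had 17 tiles and 1 DMR. It lay at chr10:79735201-79735300, with 48.4% ± 5.3 (SD, n = 6) in controls and, in the EtOH-exposed group, 34.2% ± 9.1 (SD, n = 16). The other septin genes had 82 tiles and 2 DMRs, or 2.44%, too few DMRs to tell this share from that of all tiles. These were in Septin5, at chr16:18625101-18625200, with 28.4% ± 4.1 (SD, n = 5) and 18.2% ± 6.4 (SD, n = 13), and in Septin14, at chr5:129689501-129689600, with 86.5% ± 5.2 (SD, n = 5) and 68.7% ± 16.4 (SD, n = 9). Of 13 septin genes listed, 12 were found in the annotation and Septin6, on the X chromosome, was not analysed here. Gipc1 and Gipc3 had 17 tiles and 0 DMRs, too few tiles to tell their share from that of all tiles. The median weighted difference was 0.040 points over the septin tiles and −0.22 over the GIPC tiles, beside −0.13 over all tiles.

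For each lead tile, the 3 tiles elsewhere with the most similar levels were found by the root mean square difference over at least 20 shared samples. The Hcn4 tile was closest to a tile within Iqsec1, chr6:90711701-90711800, at 7.49 points over 21 samples. The next lay in Ror1, which codes for a receptor tyrosine kinase-like Wnt receptor, and at −113192 bp from the start of Gm26911. The Septin9 tile was closest to tiles upstream of 2610528J11Rik, Fech and Fam102a, at 6.74 to 6.93 points. The Gipc2 tile was closest to tiles upstream of Gm32749, in Map3k6 and upstream of Gm22045, at 8.58 to 9.45 points. Tmem267 had more distant matches, at 10.8 to 11.2 points, at 108910 bp past the start of Gm36166 and outside any gene, at −104 bp from the start of H19, an imprinted non-coding RNA, and in Ptch1, the Hedgehog receptor. The median over 7158 partly methylated tiles was 34.4 points for Tmem267, 25 for Hcn4, 23.6 for Septin9 and 22.6 for Gipc2.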

How the data were processed

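The deposited files give, for each sample, every CpG cytosine with its coverage and the percentages of C and T reads, that is, coverage counts and percent methylation as the authors made them from RRBS reads. Per the labels and the study's methods, Trim Galore 0.3.3 removed adaptors and BSMAP 2.90 was the aligner, on mm10. MspI libraries were gap-filled, which can place unmethylated cytosines at CCGG ends.

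Methylated reads were recovered as coverage times percentage, rounded. Cytosines were placed in 100 bp tiles of their own position (at least 10 reads per strand, 2 CpGs and 5 samples per condition, chromosomes 1 to 19). A likelihood-ratio test of a logistic model was run on all tiles with Benjamini-Hochberg adjustment, and DMRs had q under 0.01 and 10 points. Python 3.11.15, numpy 2.4.6, scipy 1.17.1, pandas 2.3.3 and blastn 2.17.0 were used, with R 4.3.3 and limma 3.58.1 for an alternative test. Scripts were tested on simulated data. Depth at the lead tiles, as log2(calls per 1000000 + 1), was compared by exact permutation over all 74613 ways to divide them into 6 and 16.

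Samples were grouped by the exposure in the labels. The genes, family lists and rules were chosen with earlier results of these data known. The named tiles were the DMR of largest weighted difference in each gene, the partly methylated tile of largest SD, all tiles within 2 kb, and the 3 most similar tiles elsewhere. For the family lists, genes with a DMR were named, and 1 listed item is not reported here. Same-numbered control and EtOH-exposed samples were not treated as pairs. Alternatives changed the read minimum, the strand rule, CCGG sites, the test, the samples and the difference required. The X and Y chromosomes were left out.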

Additional observations from a re-analysis of the deposited data

Results flagged for a closer look

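Control sample 4 stood apart from the other controls at the Hcn4 lead tile, at 62.7% against 54.2% for the nearest of the 6. Its gap was 0.821 of the group's range. It raises the upper end of the control range at this tile and leaves the lower end, 52.3%, as it was. Among the 14 groups of control values examined in this way, 1 stood apart, and chance gives about 1 in 20.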

How the results depend on the processing

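All 120 alternative values of the 4 lead-tile differences had the sign of the reported ones, and 114 moved by less than the control SD. Leaving out each sample in turn gave −27.8 to −18.5 points at Tmem267, −23.9 to −17.6 at Hcn4, −21.0 to −16.5 at Septin9 and −24.5 to −19.7 at Gipc2. Without the 8 EtOH-exposed samples whose read ratio was below every control, a choice made after seeing the data, the differences were −11.7, −12.6, −7.85 and −10.2 in the same order, and 3 of 71 tiles were called, beside 0.237% of all tiles. The cause was not tested. Neither the F test with overdispersion nor limma on log2 ratios called a tile of the 4 genes, 0 in each case, with 10 and 8 tiles at an unadjusted p under 0.05, beside 5.78% and 4.46% of all tiles. Requiring 20 points left 4 DMRs of 76 tiles, beside 0.0889% of all tiles, and a minimum of 20 reads gave 5 of 46 tiles, beside 0.730%. The other 9 alternatives gave 6 to 11 DMRs among 30 to 117 tiles, beside 0.586 to 3.08% of all tiles, so these counts are not on one footing. The SDs between EtOH-exposed samples moved by less than the control SD under both read minima and without CCGG sites. The Hcn4 tile had too few CpGs for a value once CCGG sites were left out.

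Same-numbered samples deviated together, with a correlation over 0.1, in 2 of 6 pairs, and 3 of 12 samples correlated best with their own number. The labels do not say what the number stands for, and whether such samples share more than a number cannot be told from these values. With the replicate block (the mean of the 6 same-number differences) the differences were −32.5 at Hcn4, −26.8 at Septin9, −24.6 at Tmem267 and −23.5 at Gipc2. This alternative uses only EtOH-exposed samples 1 to 6. In samples 1 to 6 of each condition, 10 of 65 tiles were DMRs with the replicate block and 11 without it, beside 3.02 and 3.08% of all tiles.

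No alternative moved a depth test across an adjusted p of 0.05. The depth difference changed sign at Septin9 with the deepest CpG alone (−0.024 on the log2 scale), and over single samples left out it ran from −0.22 to 0.19 there, from −0.25 to 0.0024 at Tmem267, from −0.42 to −0.11 at Hcn4 and from −0.54 to −0.030 at Gipc2. Depth limits some lead tiles: at Hcn4, 2 controls had 24 and 34 reads, and with a minimum of 20 reads Hcn4 kept 4 controls and 15 EtOH-exposed samples and Gipc2 3 and 13.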
